A study of Mus musculus with 6 samples.

Results

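The cells described here were the Elane-positive cells of a mouse progenitor culture sampled 48 h after HOXA9 was switched off. Elane encodes neutrophil elastase, a serine protease stored in the primary granules of neutrophils. A cell was a member if its barcode held 200 to 6000 genes, at most 10% of transcripts from mitochondrial genes, at least 2 Elane molecules, fewer than 20 S100a8, fewer than 20 Prg2 and fewer than 5 Cpa3 molecules. Molecules were counted by unique molecular identifier (UMI), which counts copies of 1 captured transcript once. The rule held for 253 of the 1404 kept cells of the library (18.0%, 95% binomial interval 16.0 to 20.1), out of 5872 kept cells in 6 libraries. Since the members were chosen by their measured Elane, S100a8, Prg2 and Cpa3 counts, the levels of Elane, S100a8, Prg2 and Cpa3, and every other gene compared within the same cells, are given as descriptions without a test.

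The study set loss of the histone chaperone CAF-1 against inactivation of HOXA9 in iGMPs, which are granulocyte-macrophage progenitors from C57BI/6 mouse bone marrow (strain as labelled). All libraries came from Lys-GFP-ER-HoxA9 cells, which carry GFP in the lysozyme gene and a HOXA9 transcription factor fused to the hormone-binding domain of an estrogen receptor. Live cells were sorted and sequenced with a 3′ droplet assay (10x Chromium v2) at 0, 48 and 96 h in each arm, each time point being a single unreplicated library. In the HOXA9 OFF arm a control-hairpin clone was washed free of estradiol, which inactivates the fusion protein, and its 0 h library came from cells kept in 150 ng/ml estradiol. In the CAF-1 OFF arm 500 µM IPTG induced a short hairpin RNA against Chaf1b while estradiol was kept, and its 0 h library had estradiol as well. All groups shared the fusion protein and stem cell factor from conditioned medium. The arms came from different clones with different hairpins, so clone, hairpin and treatment cannot be told apart between the arms. A library stands for 1 clone in culture and not for an animal.

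Neutrophils make their granules in sequence. The promyelocyte, a dividing cell, fills primary (azurophil) granules with myeloperoxidase and serine proteases, and the later myelocyte and metamyelocyte stop making these transcripts and fill secondary and tertiary granules with lactoferrin, lipocalin and gelatinase. S100a8 and S100a9, the calprotectin subunits, become abundant in the later stages. Elastase transcripts without high S100a8 therefore mark an early stage of this series.

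The primary granule genes on which the description turns are shown with the bases before their starts, since their transcripts were high in the same cells. The windows hold the 250 bases before the start of the RefSeq gene on GRCm38.p6, the build of the files, read 5′ to 3′ on the strand of the gene. They are chr10:79886062-79886311 for Elane and chr10:79879417-79879666 for Prtn3, both on the plus strand, chr11:87793534-87793783 for Mpo on the plus strand, and chr14:56102575-56102824 for Ctsg on the minus strand. Capitals mark matches on either strand to AGGAAGT, a PU.1 or ETS-type motif, and to CAACNG, a MYB-type motif.
Elane: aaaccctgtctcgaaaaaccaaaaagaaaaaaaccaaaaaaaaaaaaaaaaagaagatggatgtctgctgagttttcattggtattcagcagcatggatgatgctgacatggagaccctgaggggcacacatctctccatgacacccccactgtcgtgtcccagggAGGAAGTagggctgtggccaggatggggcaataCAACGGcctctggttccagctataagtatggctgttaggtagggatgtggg
Prtn3: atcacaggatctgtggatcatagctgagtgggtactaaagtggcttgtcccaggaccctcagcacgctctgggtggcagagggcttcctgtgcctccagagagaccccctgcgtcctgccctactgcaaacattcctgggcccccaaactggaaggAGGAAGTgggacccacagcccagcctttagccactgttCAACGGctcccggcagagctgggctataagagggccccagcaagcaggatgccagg
Mpo: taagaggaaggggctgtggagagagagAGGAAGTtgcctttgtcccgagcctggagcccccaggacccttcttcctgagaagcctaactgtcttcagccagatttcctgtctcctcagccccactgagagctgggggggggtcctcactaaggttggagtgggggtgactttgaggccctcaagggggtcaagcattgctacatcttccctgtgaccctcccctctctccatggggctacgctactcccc
Ctsg: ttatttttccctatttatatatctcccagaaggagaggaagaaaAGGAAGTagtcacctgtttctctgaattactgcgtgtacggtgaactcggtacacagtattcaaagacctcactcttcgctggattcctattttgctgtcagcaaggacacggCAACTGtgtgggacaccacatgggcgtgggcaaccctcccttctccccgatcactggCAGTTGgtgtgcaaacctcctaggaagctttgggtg
AGGAAGT occurred 1 time in each of the 4 windows and in 7.80% of the 27025 windows of the same length in the table. Over the 8 azurophil genes with a window, AGGAAGT was in 5, CAACNG in 4 and TTGCNNAA, a C/EBP-type motif, in 0. CAACNG occurred 2 times before Ctsg, 1 time each before Elane and Prtn3 and 0 times before Mpo, against 29.3% of all windows with a match. TTGCNNAA was in 0 of the 4 windows and in 9.55% of all. No motif overlapped another in these windows. The motifs were chosen with the sequences in view, and a match describes letters, not binding. Prtn3, encoding proteinase 3, ends 3137 bases before Elane starts on chromosome 10, with 0 annotated genes between them.

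The members held 1282247 UMIs and were deeper than most other cells. Their median was 4765 UMIs and 1642 genes per cell. The other cells were split by the same limits. The remainder (583 cells, 41.5%) passed no limit and had 0 or 1 Elane UMI, with a median of 3360 UMIs and 1220 genes. The S100a8-rich cells (270, 19.2%) had at least 20 S100a8 UMIs, the Prg2-rich cells (189, 13.5%) at least 20 of Prg2, which encodes eosinophil major basic protein, and the Cpa3-rich cells (41, 2.92%) at least 5 of Cpa3, a mast cell carboxypeptidase. Their median depths were 3010, 3318 and 3218 UMIs, and 68 cells (4.84%) passed 2 or more of these limits. A minimum of 2 UMIs is met more easily by a deep cell, and the part of depth in the results was not tested, so levels are given as CPM, the UMIs of a gene scaled to the total UMIs of its class, and repeated in cells of 3000 to 6000 UMIs. Intervals for levels are exact 95% Poisson intervals and those for folds and shares exact 95% binomial intervals, and they cover counting error only.

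Elane itself ran from 2 to 63 UMIs per member with a median of 5. Below the other limits, 500 cells had 0 Elane UMIs, 83 had 1, 52 had 2, 38 had 3, 98 had 4 to 9, 40 had 10 to 19 and 25 had 20 or more. The counts thus ran on without a gap at the limit, while median depth went from 3261.5 UMIs in cells with 0 to 5534 in cells with 20 or more. Mpo was at 1766 CPM in members with 2 Elane UMIs, 1320 CPM in remainder cells with 1 and 266 CPM in remainder cells with 0. Ctsg was at 1581, 1226 and 347 CPM in the same order, and the 25 S phase genes summed to 1814, 1693 and 485 CPM. Remainder cells with a single Elane UMI were thus closer to the members with 2 than to the Elane-negative cells, while all members together had more (2227 CPM of Mpo and 2118 CPM of Ctsg). At the S100a8 limit, 51 S100a8-rich cells (18.9% of their class) had at least 2 Elane UMIs, against 6 Prg2-rich cells and 1 Cpa3-rich cell.

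**Figure D1:**
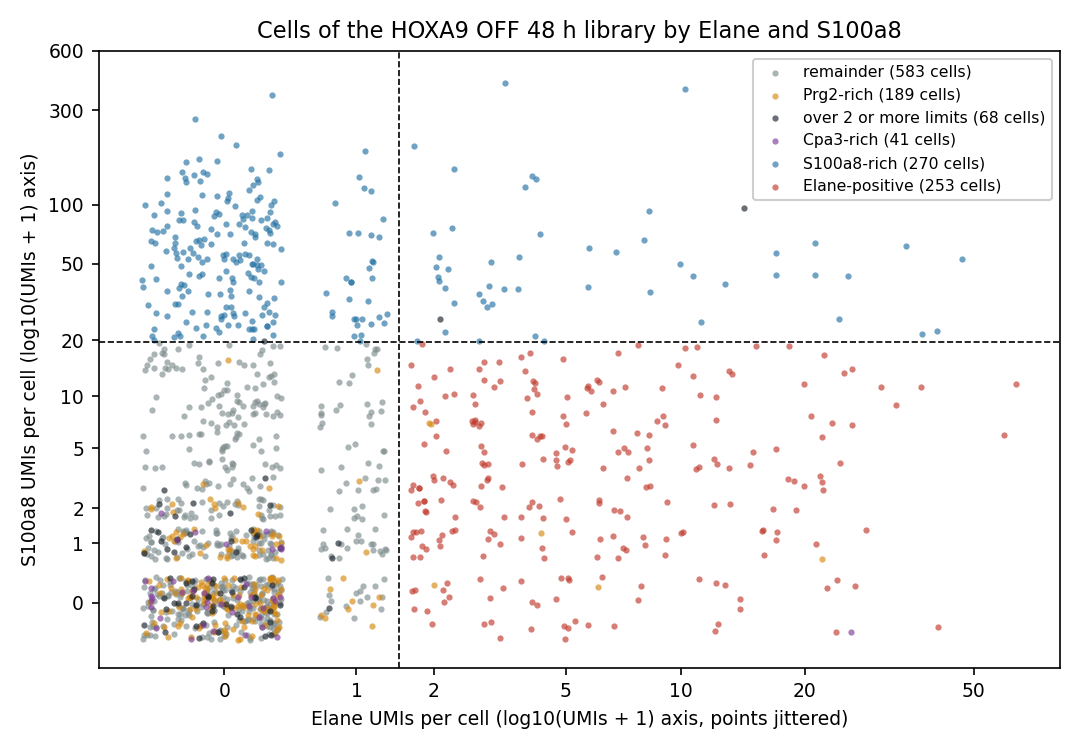
Each point is 1 of the 1404 kept cells of the HOXA9 OFF 48 h library, with Elane UMIs on the x axis and S100a8 UMIs on the y axis, both as log10(UMIs + 1) with points jittered, colored by class. Dashed lines mark the limits of 2 and 20 UMIs, and the 253 members fill the lower right without a gap to the 83 remainder cells with 1 Elane UMI or to the 51 S100a8-rich cells above the line.

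The label of promyelocyte-like cells was set against its other markers. Of the 8 promyelocyte markers besides Elane, 6 were at least 2-fold higher in members than in the remainder on the scale of log2(CPM + 10). They were Mpo, Prtn3, Ctsg, Ms4a3, Prss57 and Gfi1, where 4.94% of all genes were higher. Gfi1 lay only just past the limit and on few UMIs, with means of 0.237 per member and 0.0617 per remainder cell. Fcnb (ficolin B) and Cebpe, which encodes a transcription factor of the myelocyte transition, had log2 ratios of 0.86 and 0.40. Both were higher in the S100a8-rich cells, at 978 and 845 CPM, than in members, at 402 and 692 CPM. The label therefore held for the granule proteases and did not hold for those later members of the marker list.

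Primary granule transcripts other than Elane were higher in members than in the rest of the library. Mpo (myeloperoxidase) was at 2227 CPM in members (2146 to 2310). It was at 455 CPM in the remainder, 536 CPM in S100a8-rich, 348 CPM in Prg2-rich and 686 CPM in Cpa3-rich cells, which put members 4.79-fold above all other cells together (4.52 to 5.08). Ctsg (cathepsin G) was at 2118 CPM (2039 to 2199) in members and at 505, 379, 253 and 662 CPM in the same classes, 4.99-fold above all other cells (4.69 to 5.30). Prtn3 was at 3927 CPM in members and at 1724, 2235, 631 and 817 CPM in the other classes, 2.61-fold above all other cells (2.52 to 2.71). Prtn3 was thus present in every class, and the members differed less in it than in Mpo or Ctsg. Prss57, another granule serine protease, was at 210 CPM in members and 98.1 CPM in all other cells, a 2.14-fold difference (1.83 to 2.5). Among the proteins that package or process the proteases, Srgn (the proteoglycan serglycin) was at 1650 against 1061 CPM, Ctsc (the peptidase that activates them) at 175 against 179 CPM, and Cd63 (a granule membrane protein) at 1878 against 2203 CPM. Of the 9 azurophil genes, 5, Elane among them, were at least 2-fold higher than in all other cells and 0 lower, with a median log2 ratio of 0.83 over the 8 without Elane. Over all 4366 genes of that comparison, 3.87% were higher, 2.02% lower, and the median was 0.11.

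Of the 8 early granulocyte genes, 2 were at least 2-fold higher than in all other cells, with a median log2 ratio of 0.56. Ms4a3, a membrane protein typical of granulocyte precursors, was at 1834 CPM (1761 to 1910) in members, 556 CPM in the remainder and 1290 CPM in S100a8-rich cells. Gstm1, a glutathione transferase, was at 501 CPM against 241 CPM in all other cells, 2.08-fold (1.88 to 2.30). Gfi1, a repressor needed for granulocyte development, was low everywhere, at 46.8 CPM in members (60 UMIs) and 22.1 CPM in all other cells.

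The shares of cells with a transcript were compared after each cell was thinned to 2100 UMIs, which kept 251 members, 536 remainder, 230 S100a8-rich and 157 Prg2-rich cells. Mpo, Prtn3 and Ctsg were found together in 74.5% of members (68.6 to 79.8), 18.3% of remainder cells (15.1 to 21.8), 18.7% of S100a8-rich and 8.92% of Prg2-rich cells (4.96 to 14.5). Unthinned, the shares were 85.8%, 20.4%, 21.9% and 10.1%. The Prg2-rich cells, rich in an eosinophil transcript, had a median of 3318 UMIs against 4765 in members, and their share is given beside each for comparison. How much of that share the Prg2-rich cells themselves expressed was not tested. Ctsg was found in 86.1% of members and 19.7% of Prg2-rich cells (unthinned 92.1% and 22.2%), and Ms4a3 in 82.5% and 26.1% (88.5% and 26.5%). The shares in members lay far above those in Prg2-rich cells. Across the 251 thinned members, Mpo and Ctsg had a Spearman correlation of 0.50, given as a description of cells that share a library and a depth.

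**Figure D2:**
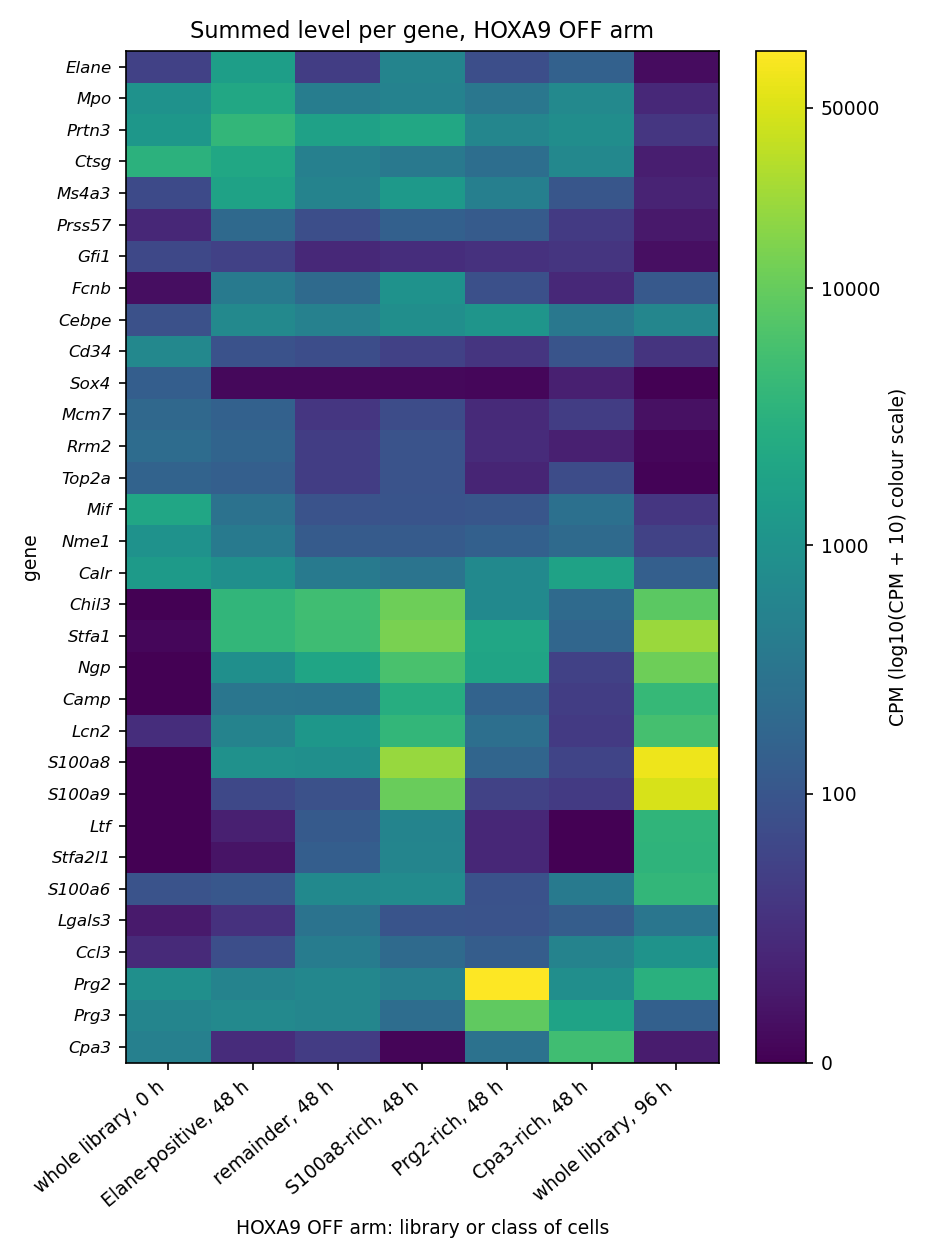
Heat map of summed levels (CPM, color on a log10(CPM + 10) scale) of 32 genes (rows) in the HOXA9 OFF arm, with the whole 0 h library, the members and 4 other classes at 48 h, and the whole 96 h library as columns. Mpo, Prtn3 and Ms4a3 are brightest in the members, S100a8 and S100a9 at 96 h and in the S100a8-rich cells, and Sox4 (138 CPM at 0 h, 2.34 CPM in members) at 0 h.

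Genes of DNA replication were higher in members as a group. Of the 17 S phase genes measured out of 25, 15 were at least 2-fold higher than in all other cells and 0 lower, with a median log2 ratio of 1.41, and the 25 genes summed to 2138 CPM against 733 CPM. Mcm7, a subunit of the replicative helicase, was at 156 CPM in members (135 to 179) and 37.0 CPM in all other cells, 4.22-fold (3.39 to 5.25). Rrm2, which makes deoxynucleotides, was at 172 against 45.9 CPM and Tyms (thymidylate synthase) at 143 against 42.7 CPM. Outside that list, Lig1 (DNA ligase 1) was at 102 against 22.6 CPM, Tk1 (thymidine kinase) at 108 against 26.3 CPM, Tipin (a replication fork protein) at 172 against 48.4 CPM and Syce2 at 108 against 30.3 CPM. At 2100 UMIs per cell, at least 2 S phase UMIs were found in 64.9% of members (58.7 to 70.8), 24.3% of remainder cells (20.7 to 28.1) and 38.3% of S100a8-rich cells (32.0 to 44.9). Unthinned, these were 81.0%, 34.1% and 41.9%.

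G2/M genes were higher too. Of 19 measured, 11 were at least 2-fold higher than in all other cells, with a median log2 ratio of 1.05. Top2a (topoisomerase 2α) was at 142 against 49.2 CPM and Cdk1, the mitotic kinase, at 134 against 43.4 CPM. Outside the list, Stmn1, a microtubule regulator of dividing cells, was at 622 against 212 CPM, Cks1b, a Cdk partner, at 225 against 76.0 CPM and Ptma (prothymosin α) at 3140 against 1149 CPM. In cells of 3000 to 6000 UMIs (178 members with a median of 4435), 11 of 16 S phase genes stayed at least 2-fold higher, with a median of 1.18, while 0 of 16 G2/M genes did, with a median of 0.63. The S phase count thus largely held within the window and the G2/M count did not. The window did not make depth equal. Its medians were 3708 UMIs in the remainder, 3760.5 in S100a8-rich, 3989.5 in Prg2-rich and 4364 in Cpa3-rich cells. Cells over 2 or more limits had 4548. Of 5 cell cycle exit genes measured, 1 was at least 2-fold lower, Btg1 (203 against 436 CPM).

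In all, 169 of 4366 genes were at least 2-fold higher in members than in all other cells and 88 were lower. TMM scaling moved the median over all genes from 0.11 to −0.03, and with it 108 were higher and 140 lower, so that the higher share went from 65.8% to 43.5%. Scaling by the median of ratios gave 121 and 124 (49.4%). In the 3000 to 6000 UMI window the counts were 63 and 50.

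Against the remainder, which lay below the same 3 limits, 218 of 4412 genes (4.94%) were higher and 133 (3.01%) lower, with a median of 0.06 (113 and 71 in the depth window). Scaling by the median of ratios gave 175 and 162, and the higher share went from 62.1% to 51.9%. Of the measured genes, 16 of 17 S phase and 17 of 19 G2/M genes were higher, with medians of 1.53 and 1.28. Within the depth window 13 of 16 and 6 of 14 were. The azurophil list had 5 of 9 genes higher in either case, Elane included, with a median of 1.08 without Elane. Mcm7 was at 32.3 CPM and Lig1 at 21.4 CPM in the remainder, 4.83-fold and 4.78-fold below members. Genes of the endoplasmic reticulum that fold and export proteins leaned the same way, with 27 of 29 above 0 and 6 at least 2-fold higher (median 0.64, 1 of 29 in the depth window). Calr (calreticulin) was at 888 CPM in members and 407 CPM in the remainder, and Ddost, of the glycosylation complex, at 260 and 108 CPM. Nuclear genes of oxidative phosphorylation had a median of 0.57, with 28 of 30 above 0 and 1, Atp5g1, at least 2-fold higher (576 against 250 CPM). Over all 4412 genes, 54.7% lay above 0. Ribosome biogenesis genes had 3 of 13 higher, with a median of 0.70.

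Several genes of later granules were lower in members than in the remainder. Of 10 secondary and tertiary granule genes measured, 5 were at least 2-fold lower and 0 higher, with a median of −0.80 (2 of 9 and −0.33 in the depth window). Ltf (lactoferrin) was at 12.5 CPM in members (16 UMIs, 7.13 to 20.3) and 117 CPM in the remainder, and Mmp8 (neutrophil collagenase) at 34.3 and 156 CPM. Ngp and Lcn2 (lipocalin 2) were at 878 and 554 CPM in members, against 2013 and 1190 CPM. Other later granule genes differed less. Chil3, a chitinase-like protein, was at 3828 CPM in members and 5295 CPM in the remainder, Hp (haptoglobin) at 1061 and 1069 CPM and Camp (cathelicidin) at 341 and 326 CPM. Few members carried the Camp level, with a UMI in 19.8% of members (13.1% thinned, against 13.4% of Prg2-rich cells), a median of 0 and a maximum of 89 UMIs in 1 cell.

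Lgals3, encoding galectin 3, differed widely. It was at 25.7 CPM in members (33 UMIs, 17.7 to 36.1) and 297 CPM in the remainder, 11.6-fold lower (8.14 to 16.9), and was found in 5.98% of thinned members and 33.8% of thinned remainder cells (unthinned 8.30% and 40.7%), with 12.1% in Prg2-rich cells. S100a6, a calcium-binding protein, was at 106 against 716 CPM, found in 15.5% and 57.1% of thinned cells (30.0% and 64.3% unthinned). Ifitm6 was at 43.7 against 375 CPM. The chemokines Ccl3 and Ccl6 were at 78.0 against 425 CPM and 25 against 157 CPM, and Wfdc17 at 20.3 against 144 CPM. Of the stefin A genes, cysteine protease inhibitors of myeloid cells, 3 of 4 were lower. Stfa2l1 was at 6.24 CPM in members (8 UMIs) and 140 CPM in the remainder, and Stfa1, the fourth, at 3917 and 4959 CPM. Reads of these near-identical copies (Stfa1, Gm5483, BC100530 and neighbors) are hard to assign to 1 gene, as are those of Lyz1 and Lyz2 and of histones.

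Further lists were lower against the remainder, where 3.01% of all genes were at least 2-fold lower. Interferon response genes had 5 of 7 at least 2-fold lower (median −1.30, 2 of 4 in the depth window). Ifit1 had 0 UMIs in members, which allows 2.34 CPM, against 43.2 CPM in the remainder. There 12 of 583 cells held a UMI and 1 cell held 34. Such a gene is measured only through the remainder and can only come out lower, which bears on this count and median. Summed over all 12 genes, the list was at 998 CPM in members and 1918 CPM in the remainder. Ifitm3 was at 224 and 739 CPM. Stress and immediate early genes had 3 of 5 lower (median −1.36, 2 of 5 in the window), with Fos at 68.6 and 192 CPM and Junb at 45.2 and 136 CPM. Monocyte genes were mixed. Of 8 measured, 4 were lower, Ctss (cathepsin S, 25 against 120 CPM), Ccr2, Mpeg1 and Csf1r, while Irf8 (88.9 against 72 CPM) and Ly6c2 (735 against 460 CPM) lay above. Of 13 lysosome genes, 2 were lower (Psap at 399 and 943 CPM, Ctsd at 458 and 1080 CPM). Of the 6 NADPH oxidase subunits 0 passed 2-fold while all lay below 0 (54.7% of all genes lay above 0), with Cybb at 121 and 229 CPM. Of 9 cytokine and chemoattractant receptors, 3 were lower, Ccr1, Csf1r and Cd14.

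**Figure D3:**
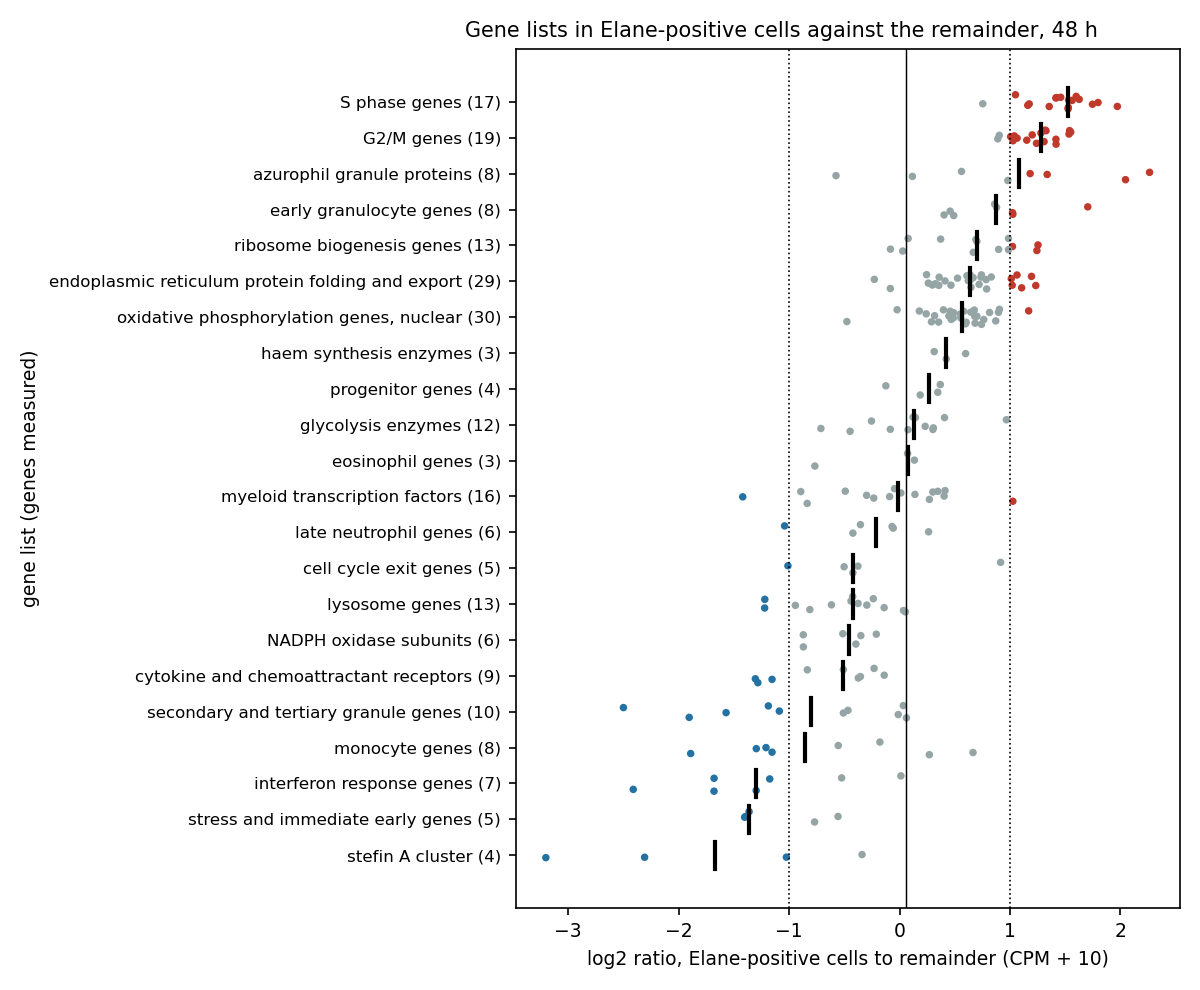
Log2 ratio of members to the remainder (x axis, CPM + 10) for the measured genes of each list (y axis, number of genes in parentheses, genes of the rule left out). Points are genes, red or blue beyond the dotted 2-fold lines, black ticks are list medians and the thin line is the median of all genes (0.06), and S phase (1.53), G2/M (1.28) and azurophil genes (1.08) lie at the top with stefin A genes (−1.67) at the bottom.

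The S100a8-rich cells carry neutrophil granule transcripts as the members do, and the granule genes differed in both directions. Of 4360 genes, 123 (2.82%) were higher in members and 101 (2.32%) lower, with a median of 0.12. TMM scaling gave 80 and 148, so that the higher share went from 54.9% to 35.1%. The median of ratios gave 33.6%, and totals without mitochondrial and ribosomal protein genes 71.4%. Mpo was 4.16-fold higher in members (3.77 to 4.59) and Ctsg 5.58-fold (4.98 to 6.28), while Prtn3 differed 1.76-fold and Ms4a3 1.42-fold. In the other direction, 10 of 11 secondary and tertiary granule genes (median −2.46) and 6 of 6 stefin A genes (−3.76) were lower. Camp was at 341 against 2723 CPM, Lcn2 at 554 against 3953 CPM and Ltf at 12.5 against 569 CPM, 45.6-fold lower (27.8 to 80.4). S100a9, which the rule did not limit, was at 60.8 CPM in members and 10703 CPM in S100a8-rich cells.

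Cell cycle and biosynthesis genes were also set against the S100a8-rich cells. S phase genes were at least 2-fold higher in 5 of 18 (median 0.88) and G2/M genes in 0 of 20 (0.23). In the depth window these were 1 of 18 (0.35) and 0 of 20, with 3 G2/M genes lower and a median of −0.55, so the sign of the G2/M median turned in the window. Ribosome biogenesis genes were higher in 8 of 12 (median 1.10, 0 of 10 and 0.71 in the window). Nop56 was at 60.1 against 13.8 CPM and Nop10 at 417 against 163 CPM. Mif, a cytokine, was at 293 CPM in members and 93.1 CPM in S100a8-rich cells, 3.15-fold (2.47 to 4.06). Nme1, a nucleotide kinase, was at 384 and 122 CPM, the mitochondrial protein C1qbp at 124 and 35.6 CPM, and Calr at 888 and 307 CPM. Ms4a6c, on the monocyte list, was at 141 against 42.5 CPM, and Prg3, an eosinophil granule gene, at 685 against 238 CPM.

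Markers of other lineages were checked in the members. Prg2 and Prg3, eosinophil granule proteins, were at 566 and 685 CPM in members. The ratio of Prg2 to Prg3 UMIs was 0.827 in members, 1.05 in the remainder and 8.94 in Prg2-rich cells, but the rule limits Prg2, so the choice of members bears on this ratio. Epx (eosinophil peroxidase) had 1 UMI in members and was at 216 CPM in Prg2-rich cells. Mast cell or basophil genes summed to 77.2 CPM in members and 7452 CPM in Cpa3-rich cells. Megakaryocyte genes summed to 46.8 CPM with 7 of 10 at 0 UMIs, erythroid genes to 34.3 CPM with 8 of 12 at 0, and lymphoid genes to 70.2 CPM with 4 of 8 at 0. Of 7 genes not expressed in blood 6 were at 0 UMIs, and Tnnt2, the cardiac troponin gene, was at 21.8 CPM in members (28 UMIs) and 58.2 CPM at 0 h. Scrublet called 4 of the 1404 cells doublets, 0 of them members, 0 to 7 barcodes were shared between any pair of libraries, and 2 members shared one with another library.

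The members were split by their S100a8 counts. S100a8 UMIs were 0 in 44 members, 1 to 4 in 110 and 5 to 19 in 99. The first 2 ranges had medians of 5012 and 4989 UMIs per cell and the third 4361. Ctsg was at 2686, 2268 and 1631 CPM across these ranges, 1014 CPM in the 51 Elane-positive cells above the limit and 165 CPM in the 219 S100a8-rich cells with 0 or 1 Elane UMI. Mpo went from 2511 to 2338 and 1938 CPM among members and then to 1473 and 218 CPM. Prtn3 stayed between 3835 and 4070 CPM in members and was at 3991 CPM in the 51 cells above the limit. Ctsg and Mpo were thus lower at higher S100a8, while Prtn3 was level among the Elane-positive cells and at 1640 CPM in the 219 cells with 0 or 1 Elane UMI.

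Several later genes were higher at higher S100a8. Fcnb was at 200, 299 and 637 CPM in the 3 ranges and 1346 CPM in the cells above the limit. Ngp was at 363, 512 and 1605 CPM, Camp at 93.9, 301 and 521 CPM and Stfa1 at 2715, 3267 and 5360 CPM. Lcn2 was at 412, 383 and 843 CPM. Calr went from 1245 to 1003 and 557 CPM, Mif from 514 to 282 and 190 CPM, and Irf8 from 114 and 110 to 49.7 CPM. Ribosome biogenesis genes summed to 2915, 2670 and 2210 CPM. S phase genes summed to 2294, 2035 and 2182 CPM, with no such order. The ranges are intervals of a measured count that the rule used, not cell types, and no test was made between them.

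**Figure D4:**
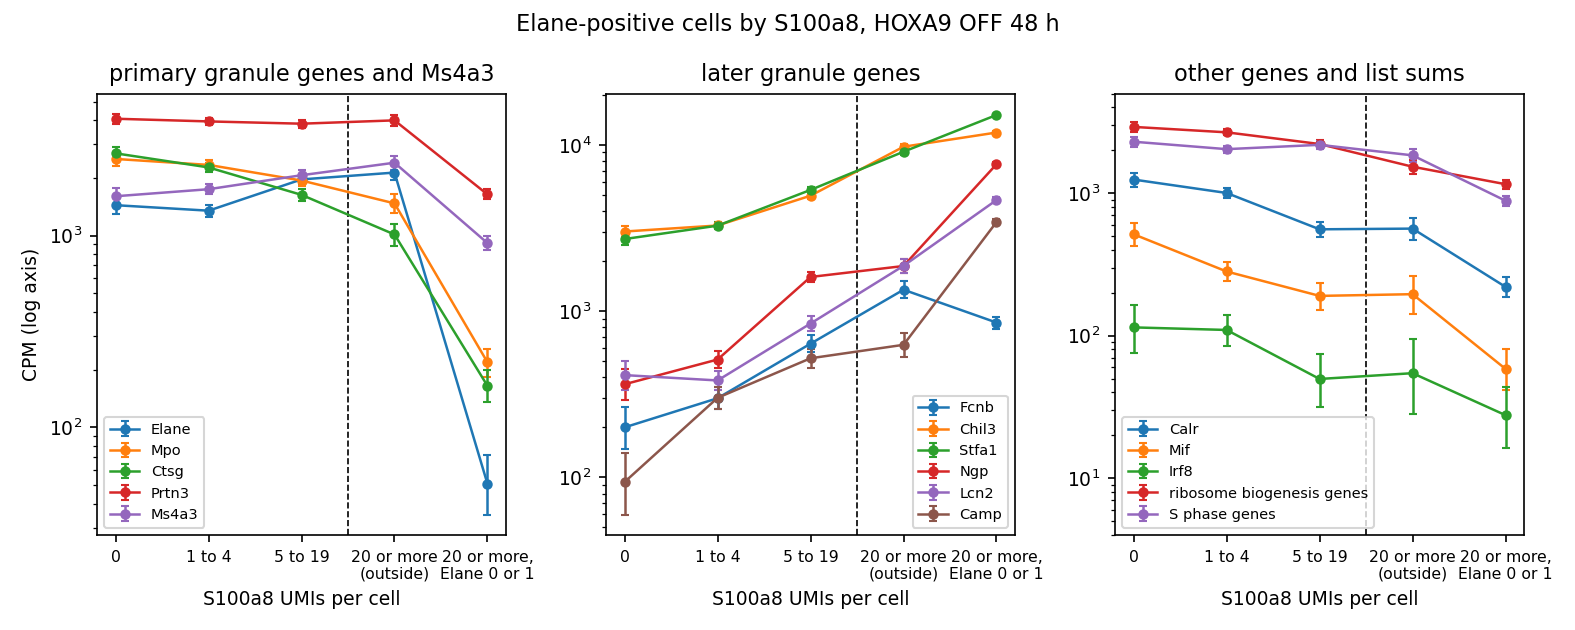
Levels (y axis, CPM on a log axis) in members by S100a8 UMIs per cell (x axis: 0, 1 to 4, 5 to 19), in Elane-positive cells above the limit and in S100a8-rich cells with 0 or 1 Elane UMI; error bars are exact 95% Poisson intervals and the dashed line is the limit of the rule. Ctsg goes from 2686 to 1631 CPM within the members while Ngp goes from 363 to 1605 CPM and S phase genes stay between 2035 and 2294 CPM.

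By Elane, 90 members had 2 or 3 UMIs, 98 had 4 to 9 and 65 had 10 or more, with median depths of 4369.5, 5000.5 and 5534 UMIs. Mpo was at 1752, 2193 and 2807 CPM, Ctsg at 1515, 2248 and 2614 CPM and Prtn3 at 3419, 4014 and 4378 CPM. The S phase sum was 1679, 2250 and 2496 CPM and the G2/M sum 2929, 3226 and 4510 CPM. Secondary and tertiary granule genes summed to 8690, 7579 and 6855 CPM. The levels of these proteases and of the cycle genes were thus higher in the upper ranges of Elane, a count that the rule used, and so was the depth. Across the 251 members thinned to equal depth, the Spearman correlation of Elane was 0.24 with Prtn3, 0.11 with Mpo, 0.08 with Ctsg, 0.03 with the S phase sum and 0.09 with the G2/M sum, so little of this order was seen cell by cell at that depth.

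The 0 h library of the same arm, 473 kept cells of 1400 barcodes with a median of 8660 UMIs, gave the state before HOXA9 was switched off. Of 4617 genes, 451 (9.77%) were at least 2-fold higher in members and 529 (11.5%) lower, with a median of −0.14. TMM scaling gave 514 and 380, and the higher share went from 46.0% to 57.5%. Members and the 0 h library differ in time, library and depth, which cannot be told apart. Progenitor genes were lower in members than at 0 h, and this was not particular to the members. The list summed to 324 CPM in members, 268 CPM in the remainder, 225 CPM in S100a8-rich cells and 1513 CPM at 0 h. Of 9 progenitor genes measured, 8 were lower, with Cd34 at 87.3 against 660 CPM, Sox4 at 2.34 against 138 CPM and Flt3 at 0 UMIs against 77.3 CPM. Hoxa9, the exception, was at 88.9 against 23.1 CPM, where reads of the fusion gene and of the mouse gene cannot be told apart in these counts. From RNA sequencing of whole cultures, the paper reports no reads over the untranslated ends of Hoxa9 in uninduced or HOXA9 OFF cells. It takes this as expression of the fusion gene and not of the endogenous gene. Ebf1 and Igll1, lymphoid genes, were at 0.780 and 7.02 CPM in members and 272 and 350 CPM at 0 h, and Nrgn at 4.68 and 322 CPM. Ribosome biogenesis genes had 18 of 21 lower (median −1.69), among them Ncl (nucleolin) at 229 against 1002 CPM.

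Granule genes differed in direction. Members had more Elane (1589 against 48.2 CPM), Mpo (2227 against 978 CPM), Prtn3 (3927 against 1181 CPM) and Ms4a3 (1834 against 64.9 CPM) than the 0 h library, but less Ctsg (2118 against 3309 CPM). Secondary and tertiary granule genes summed to 119 CPM at 0 h and 7728 CPM in members. The sums were 11281 CPM in the remainder and 28514 CPM in S100a8-rich cells, so the higher level was not particular to the members. All 6 measured were higher, but they reached the minimum level mostly through the members, so this count was likely from the outset. Chil3 was at 3828 CPM against 0 UMIs, Ngp at 878 CPM against 0 UMIs and Hp at 1061 against 15 CPM. Of the 6 NADPH oxidase subunits 5 were higher, and of 12 lysosome genes 9, where 9.77% of all genes were. Both lists summed to more in the remainder (5053 and 6326 CPM) than in members (3981 and 4058 CPM), so this was not particular to the members either. Among cycle genes, 0 of 21 G2/M genes (median −0.21) and 3 of 23 S phase genes, all lower (median −0.62), were beyond 2-fold. The S phase sum was 3142 CPM at 0 h, 2138 CPM in members, 702 CPM in the remainder and 224 CPM in the 96 h library. The 96 h library held 0 cells that met the rule among 1510, which allows a share of up to 0.199%, and 3 cells had at least 2 Elane UMIs. Its median depth was 2043.5 UMIs per cell. Its Mpo, Prtn3 and Ctsg were at 18.4, 31.2 and 11.6 CPM.

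The same limits were applied to the other libraries, whose cells had no part in choosing the members. They gave 23 of 473 cells (4.86%) of the HOXA9 OFF 0 h library, and for CAF-1 OFF they gave 56 of 647 (8.66%), 231 of 927 (24.9%) and 114 of 911 (12.5%) by time. Each set was compared with the cells of its library below the limits with 0 or 1 Elane UMI. In CAF-1 OFF at 96 h only 33 such cells remained, and median depths there were 5217.5 and 3214 UMIs, whereas those of the other 3 libraries differed little (5940 and 5761 at 48 h).

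Ms4a3, Mpo and Prtn3 leaned the same way in each of these 4 libraries. The log2 ratio of Mpo was 0.78 for HOXA9 OFF at 0 h, and for the CAF-1 OFF time points in order it was 1.02, 0.76 and 1.40, beside 2.26 in the members against their remainder. Those of Prtn3 were 1.06, 1.46, 0.90 and 0.32, beside 1.18. Those of Ms4a3 were 3.58, 3.51, 3.35 and 0.62, beside 1.70. The S phase list had a smaller median elsewhere. Its median was 0.03 in HOXA9 OFF at 0 h and −0.20, −0.35 and 0.61 in CAF-1 OFF, with 0, 0, 0 and 3 genes at least 2-fold higher, beside 1.53 in the members. Mcm7 had log2 ratios of 0.21, −0.34, −0.42 and 0.68, beside 1.97. The S phase sums of these Elane-positive sets were 3235, 3226, 2963 and 2631 CPM in the same order, all above the 2138 CPM of the members. Their remainders were at 3272, 3492, 3659 and 1850 CPM, against 702 CPM for the members. The larger ratio in the members thus went with a low remainder and not with a high S phase level.

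Few secondary and tertiary granule genes were measured in the other libraries. Their medians were 1.29 (3 genes), 2.35 (3), 3.05 (5) and 0.57 (6), beside −0.80 in the members. Lcn2 had log2 ratios of 0.50, 0.97, 3.05 and 1.55, beside −1.09. Ly6c2 had ratios of 4.28, 4.39, 4.37 and 1.11, beside 0.67. Summed over all 17 genes, Elane-positive and remainder cells had 370 and 109 CPM in HOXA9 OFF at 0 h. In CAF-1 OFF by time they had 354 and 61.1, 2504 and 204, and 4001 and 2793 CPM. The members and their remainder had 7728 and 11281 CPM. Where the remainder was low, a gene reached the 20 CPM minimum mostly through the Elane-positive cells. Those medians cover fewer genes and were likely above 0 from the outset. They are not read as a difference in direction, and no test was made.

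Of the 217 genes other than Elane that were at least 2-fold higher in members than in their remainder, 5 of 214 measured were so in HOXA9 OFF at 0 h, where 1.66% of all genes were. The numbers in CAF-1 OFF were 7 of 214, 6 of 215 and 25 of 212 at 0, 48 and 96 h, where 1.17%, 2.62% and 6.35% of all genes were. Of the 133 lower genes, 6 of 37 were lower in HOXA9 OFF at 0 h (all genes 3.13%), and 1 of 39, 3 of 57 and 19 of 79 in CAF-1 OFF (all genes 1.53%, 1.76% and 7.86%). The share of the measured higher genes that lay above 0 was 41.6% in HOXA9 OFF at 0 h (all genes 45.9%), and by time in CAF-1 OFF it was 47.7% (44.9%), 36.3% (40.7%) and 83.0% (46.8%), the last in the library with 33 comparison cells and unequal depth.

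Levels in the Elane-positive cells of the 5 libraries are set side by side. For Ctsg the HOXA9 OFF 0 h set had 5119 CPM and the CAF-1 OFF sets, by time, 5976, 5398 and 6106 CPM, against 2118 CPM in the members. Cd34 was at 541, 507, 477 and 440 CPM, against 87.3 CPM. Prss57 was at 47.4, 16.6, 46.8 and 93.3 CPM, against 210 CPM, and Fcnb at 61.7, 36.0, 106 and 295 CPM, against 402 CPM. Stfa1 was at 28.5, 0, 78.2 and 851 CPM, against 3917 CPM. Pf4, a platelet chemokine, was at 0, 27.7, 688 and 2675 CPM, against 4.68 CPM in the members. Of these 5 sets, the members thus had the lowest Cd34 and Ctsg and the highest Prss57, Fcnb and Stfa1, with 1 library behind each. Low Cd34 and high Stfa1 and Fcnb were not particular to the members within their library. The progenitor list, which holds Cd34, summed to 324 CPM in members, 268 CPM in the remainder and 225 CPM in S100a8-rich cells. Per-cell medians of Stfa1 and Fcnb were 13728 and 610 CPM in S100a8-rich cells, against 3108 and 225 CPM in members.

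**Figure D5:**
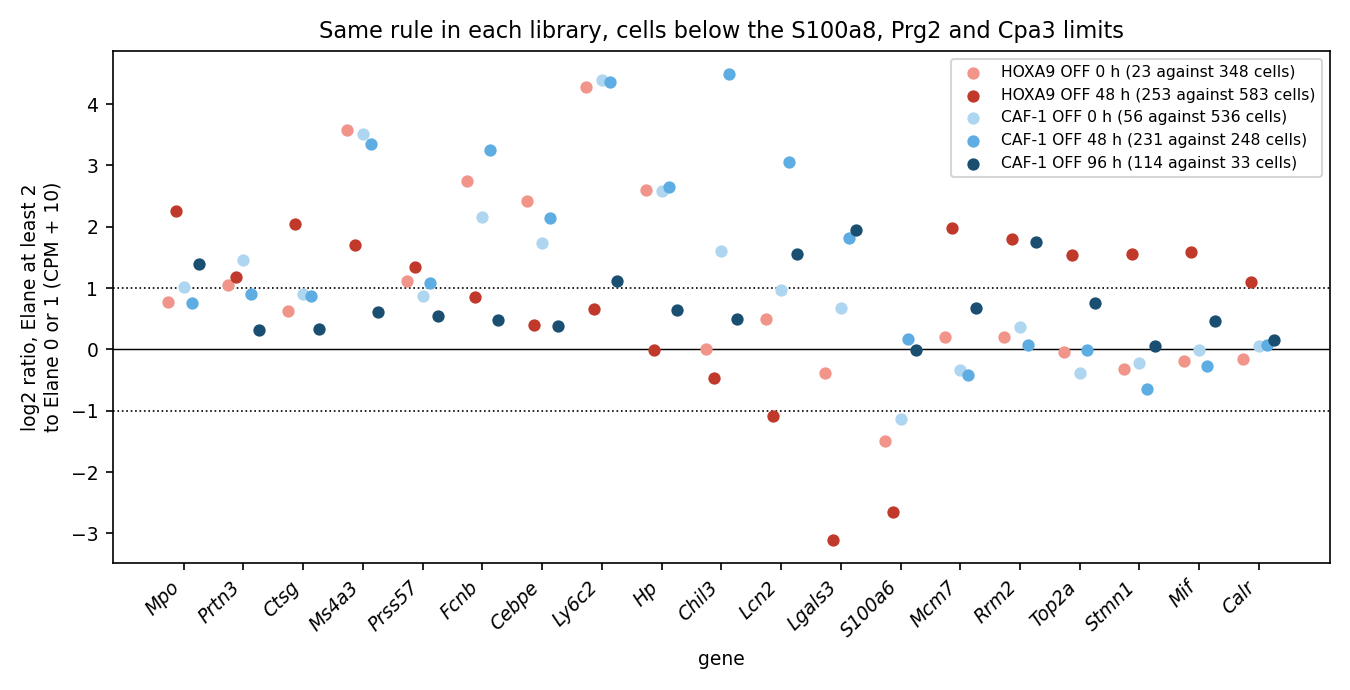
Log2 ratio (y axis, CPM + 10) of cells with at least 2 Elane UMIs to cells with 0 or 1, all below the S100a8, Prg2 and Cpa3 limits, for 19 genes (x axis) in 5 libraries, with cell numbers in the legend. Points are libraries and dotted lines mark 2-fold; Mpo (0.76 to 2.26) and Ms4a3 (0.62 to 3.58) lie above 0 in each library, while Mcm7 and Stmn1 lie beyond 2-fold in HOXA9 OFF 48 h alone and Lgals3 is at −3.10 there.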

How the data were processed

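The authors aligned reads to GRCm38 (mm10) with Cell Ranger and deposited whole-number UMI counts per gene and barcode, 27998 gene columns for 7821 barcodes. The submitters' processing notes name Cell Ranger 3.0.1, Scanpy 1.4.6 and Seurat 3.0.1. Barcodes with 200 to 6000 genes and at most 10% mitochondrial UMIs were kept, limits that the study states. Doublets were not removed. Scrublet (Scanpy 1.11.5) served as an alternative.

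Counts were summed over the cells of a class and divided by the class total to give CPM. A gene counted as measured in a comparison if the mean of both classes reached 20 CPM, and log2 ratios used CPM + 10, which understates changes of low genes. Folds are ratios of CPM without that addition. A count of 0 allows 3 counts of the total. Kept cells of the library at 48 h had a median of 3535.5 UMIs, and the 10th percentile, rounded down, set the thinning depth of 2100 UMIs. Cells of 1 library are not replicates, so no test was run. Ratios were checked on simulated counts with known changes. TMM factors came from edgeR 4.0.16 in R 4.3.3, and other steps used Python 3.11.15 with numpy 2.4.6, scipy 1.17.1 and pandas 2.3.3.

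Named genes were those of the rule, the 15 highest and 10 lowest ratios against all other cells and the 8 highest and 8 lowest against the remainder, each with at least 100 CPM in the higher class and without mitochondrial, ribosomal protein and unnamed genes, and members of 27 lists of 378 genes, of which 377 matched. For the S100a8-rich and 0 h comparisons the 8 highest and 8 lowest by the same limits were added after the data were seen. Members and lists were chosen with earlier results of these data known. Alternatives changed the pseudocount, minimum level, fold, scaling, depth and limits of the rule. Promoter windows and positions are from RefSeq on GRCm38.p6, in which all 4 genes shown were found.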

Additional observations from a re-analysis of the deposited data

Results flagged for a closer look

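Among the 193 barcodes of HOXA9 OFF at 48 h removed by the limits on genes and mitochondrial share (median mitochondrial share 34.5%), 18 met the other limits of the rule, 9.33%, against 5 of 927 (0.539%) in the 0 h library. For 4 named genes the log2 ratio of Elane-positive cells to the remainder went opposite ways at 48 h, beyond 2-fold in each arm. The difference between CAF-1 OFF and HOXA9 OFF was not tested. The arms also differ in clone and hairpin, which cannot be told apart from the treatment. With the CAF-1 OFF value first, Lgals3 was at 1.82 and −3.10, Lcn2 at 3.05 and −1.09, Slc7a11, a cystine transporter, at 1.52 and −1.90, and BC100530 at 1.11 and −1.02.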

How the results depend on the processing

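No paired analysis was possible because each group is 1 library. The 76 named ratios of at least 2-fold kept their sign in 1292 of 1292 alternative values, and 1285 stayed at least 2-fold. They include ratios of genes of the rule, and the others were named for extreme ratios in these same cells. Every setting reused those cells, so kept signs were likely from the outset and are no independent check. The 31 list medians of at least 2-fold kept their sign in 527 of 527, and 472 stayed at least 2-fold. These medians include the genes of the rule where a list holds them. The azurophil median against all other cells was 1.02 with Elane and 0.83 without it, so it counts here only through Elane. Of the values that answer a comparison, 98 moved little and 61 moved, as follows, with the cause not tested beyond what each setting changes by construction. Members were 23.9%, 14.3% and 9.69% of cells with Elane at least 1, 3 and 5, 11.0% with S100a8 below 5, 11.7% at a mitochondrial limit of 5%, and 14.6% by the rule on thinned cells.

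Counts below are genes higher and lower in members against all other cells, then the remainder, then S100a8-rich cells, then the 0 h library where named. With 1 CPM added they were 292 and 143, 347 and 202, and 266 and 166. With 50 CPM added they were 34 and 32, 52 and 35, 22 and 36, and at 0 h 214 and 194. At 1.5-fold they were 672 and 286, 690 and 413, 644 and 357, and at 0 h 798 and 1166. At 4-fold they were 3 and 20, 3 and 13, 3 and 21, and at 0 h 148 and 91. At a 5% mitochondrial limit they were 413 and 155, 471 and 250, and 375 and 182. Among cells of 3000 to 6000 UMIs, a setting added after seeing the data, they were 63 and 50, 113 and 71, and 46 and 58.

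Against all other cells, TMM gave 108 and 140, and 136 were lower without a minimum level and 145 with totals that leave out mitochondrial and ribosomal protein genes. Against S100a8-rich cells, TMM gave 80 higher, median of ratios 78 and 154, those totals 282 higher, thinned levels 186 higher, Elane at least 5 203 higher, S100a8 below 5 53 higher, and the rule with levels on thinned cells, also added later, 369 and 202.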
